A study of Mus musculus with 3 samples.

Results

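The genes described here are 10 RNA-binding factors that act on the stability of cytokine and other short-lived mRNAs: Zfp36, Zfp36l1, Zfp36l2, Rc3h1, Rc3h2, Zc3h12a, Zc3h12d, Elavl1, Pcbp1 and Pcbp2. They were chosen by name, as a list of symbols, with earlier results of these data known. All 10 were found among the 55536 genes of the deposited gene tables. The study sequenced polyadenylated RNA of activated regulatory T cells, taken as primary cells from a male adult mouse of 9 weeks of the strain Foxp3GFP-DTRCD4CreERT2R26tdTomato. The 3 libraries are technical replicates 1, 2 and 3 of 1 biological replicate, so no untreated, resting or other comparison group was analysed here. The strain name lists alleles of Foxp3, CD4 and R26, and all libraries carry them. Spreads and p-values given below measure only how much the libraries of 1 biosample vary, which may be technical, and say nothing about variation between mice. The aim was to give the level of each factor, the balance between related factors, the transcript forms that carry each level, and the differences between libraries.

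Proteins of the ZFP36 family bind AU-rich elements in the 3′UTR (the untranslated end of an mRNA) and recruit the CCR4-NOT deadenylase, which shortens the poly(A) tail. Roquin proteins, encoded by Rc3h1 and Rc3h2, bind short stem-loops in the 3′UTR, and Regnase-1, encoded by Zc3h12a, is an endonuclease that cuts mRNAs at such stem-loops. HuR, the product of Elavl1, binds AU- and U-rich sequence and is best known for stabilising its targets, so Elavl1 is a counterpart of the decay factors rather than one of them. PCBP1 and PCBP2 bind C-rich single-stranded RNA. In T cells the ZFP36, Roquin and Regnase proteins are known for limiting costimulatory and cytokine mRNAs, and the protease MALT1 cleaves Roquin and Regnase proteins after activation of the antigen receptor.

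Transcripts of 5 of the 10 genes themselves carried the core AU-rich nonamer TTATTTATT, the preferred ZFP36 site, in the 3′UTR of their leading protein-coding transcript. The motif was searched on the sense strand of the GENCODE M21 transcripts, and each site is shown as 29 bases from 5′ to 3′ with the nonamer in capitals, because these sites place the motif bound by the ZFP36 proteins within the mRNAs of ZFP36 and Roquin factors. The positions on mm10 are chr7:28376951-28376979 (minus strand) for Zfp36, chr12:80108167-80108195 (minus) for Zfp36l1, chr17:84184914-84184942 (minus) for Zfp36l2, chr1:160970043-160970071 (plus) for Rc3h1 and chr2:37373287-37373315 (minus) for Rc3h2. A site of the longer Elavl1 transcript, Elavl1-201, at chr8:4285784-4285812 (minus), and a site of the textbook target Tnf, at chr17:35199678-35199706 (minus), are given for comparison.
Zfp36: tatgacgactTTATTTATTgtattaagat
Zfp36l1: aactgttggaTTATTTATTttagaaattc
Zfp36l2: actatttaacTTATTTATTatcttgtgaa
Rc3h1: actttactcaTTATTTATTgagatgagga
Rc3h2: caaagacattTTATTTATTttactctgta
Elavl1-201: tgaaaattatTTATTTATTtatttatttt
Tnf: tatttattatTTATTTATTatttatttat

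The 5 factors with a nonamer in the leading transcript had 1 each, with further heptamers and pentamers in the same 3′UTR. Tnf had 5 overlapping nonamers and Elavl1-201 had 8. The nonamer holds the heptamer TATTTAT, which holds the pentamer ATTTA, so the counts of the 3 motifs are nested, and overlapping matches were each counted. In their leading transcripts Zfp36, Zfp36l1 and Zfp36l2 had 3 heptamers each, whereas Rc3h1-202 had 2 and Rc3h2-202 had 3. The leading transcripts of Zc3h12a, Zc3h12d, Elavl1, Pcbp1 and Pcbp2 had no heptamer and no nonamer, with 1 to 3 pentamers each. Among 10342 expressed genes with an annotated 3′UTR, 6.56% had a nonamer, 25.1% a heptamer and 62.7% a pentamer in the leading coding transcript. Long 3′UTRs hold a motif more often, so each was also set against genes with a 3′UTR within 20% of its own length. A nonamer was present in 3.79% of the genes near the length of the Zfp36 3′UTR (767 bases), in 8.35% near Zfp36l1 (1835 bases) and in 8.38% near Zfp36l2 (1822 bases). The shares were higher near the long 3′UTRs of Rc3h1-202 (7181 bases), at 27.6%, and Rc3h2-202 (5331 bases), at 19.3%. A match is a description of the sequence and does not show binding.

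The cells carried the markers of their label. Foxp3, the defining transcription factor of regulatory T cells, was at 90.1 ± 6.76 TPM (transcript abundance scaled to length and depth; mean ± SD, n = 3 libraries here and below), and Cd3e and Cd4 were at 1328 and 264 TPM. Depth was 18496690 to 21206219 estimated counts per library. Relative to library size, counts in a smaller deposited table were 1.96, 0.168 and 0.721 times these for Foxp3, Cd3e and Cd4. Summed markers of other cells were at 9.10 to 14.7 TPM for 4 B cell genes, 19.8 to 28.6 TPM for 5 myeloid genes with S100a8 listed at 0, 1.90 to 3.05 TPM for 2 NK cell genes and 0.47 to 0.61 TPM for 4 stromal and endothelial genes with Pdgfrb listed at 0. The 3 erythroid genes stood higher, at 508, 749 and 660 TPM in replicates 1, 2 and 3. The 2 CD8 genes summed to 18.5, 24.3 and 23.5 TPM, of which Cd8a was at 1.46 TPM and Cd8b1 at 20.6 TPM on average. In bulk RNA, fewer cells with a transcript and less of it per cell cannot be told apart.

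Zfp36, which encodes tristetraprolin, the founding member of its family, had the highest level of the 10 genes. Zfp36 (ENSMUSG00000044786.6; chromosome 7, 28376784 to 28380253, minus strand, mm10) was at 193, 198 and 193 TPM in replicates 1, 2 and 3. Its mean of 195 ± 2.68 TPM placed it at rank 913 of the 12598 genes that reached 1 TPM in every library, within the top 7.25%. Zfp36l1 (ENSMUSG00000021127.7; chromosome 12, 80107754 to 80113013, minus), a paralogue known for its part in lymphocyte development, was at 146, 144 and 143 TPM. Zfp36l2 (ENSMUSG00000045817.8; chromosome 17, 84183931 to 84187947, minus), the remaining paralogue of these cells, was far lower, at 13.99, 13.5 and 12.93 TPM. The ranges of the 3 genes did not overlap in any pair.

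The make-up of the ZFP36 family varied little between libraries in the larger gene table. In the smaller one the CPM (counts scaled to library size) of Zfp36l2 was 21.63, 13.85 and 14.62. Zfp36 was there at 245.7, 246.1 and 250.3 CPM and Zfp36l1 at 170.8, 169.7 and 174.2 CPM. The shares that follow are of TPM in the larger table. Zfp36 held 55.2 ± 0.49% of the family's summed 352 ± 3.48 TPM, Zfp36l1 held 40.9 ± 0.41% and Zfp36l2 held 3.82 ± 0.12%. Zfp36 exceeded Zfp36l2 by 14.5 ± 0.57-fold and Zfp36l1 by 1.35 ± 0.03-fold. Zfp36l3, a paralogue known from placenta, had 1 count in replicate 2 and none in the others. In the smaller deposited table of whole-number counts Zfp36l2 had 136, 86 and 84 counts, fewer relative to library size than in the larger table (a ratio of 0.554 in CPM, counts scaled to library size).

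Rc3h2, encoding Roquin-2, was above Rc3h1, encoding Roquin-1, in every library when all transcripts were summed. Rc3h1 (ENSMUSG00000040423.10; chromosome 1, 160906418 to 160974978, plus) was at 7.73, 6.42 and 5.78 TPM and was the lowest of the 10 genes by TPM. Rc3h2 (ENSMUSG00000075376.10; chromosome 2, 37370069 to 37422903, minus) was at 18.4, 20.5 and 17.1 TPM. The Rc3h2 level was 2.84 ± 0.42-fold that of Rc3h1, and Rc3h2 held 73.8 ± 2.96% of the pair's 25.3 ± 2.16 TPM.

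That gap between the Roquin genes narrowed when only protein-coding transcripts were counted. Of the 10 annotated Rc3h2 transcripts 7 are non-coding, and the coding ones held 42.2 ± 0.50% of the gene's TPM but 76.6% of its estimated counts, since the non-coding forms are short. The coding Rc3h2 level was 7.76, 8.55 and 7.30 TPM, beside a coding Rc3h1 level of 6.69, 6.0 and 5.32 TPM. The lowest Rc3h2 library was thus still above the highest Rc3h1 library on this scale. Within Rc3h2, the coding transcript Rc3h2-202 took 76.4, 56.7 and 64.2% of the gene's counts, while Rc3h2-201, a second coding form, took 0, 19.5 and 12.9%. The quantifier's posterior SD (the uncertainty of dividing reads among transcripts) was 67.3 to 126 counts for Rc3h2-202, so the split between these coding forms was poorly determined.

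Zc3h12a and Zc3h12d stood at similar TPM in the larger gene table. Zc3h12a (ENSMUSG00000042677.7; chromosome 4, 125118423 to 125127840, minus), encoding Regnase-1, was at 21.2, 23.5 and 21.9 TPM. Zc3h12d (ENSMUSG00000039981.6; chromosome 10, 7832470 to 7870396, plus), encoding Regnase-4, was at 24.8, 19.1 and 18.9 TPM. Zc3h12d was the higher of the pair in replicate 1 and Zc3h12a in replicates 2 and 3, and their ratio was 1.08 ± 0.20. Zc3h12a held 51.7 ± 4.92% of the pair's TPM but 41.5% of its estimated counts, because its transcript is the shorter one. The other paralogues, Zc3h12c and Zc3h12b, were at 1.56 and 1.20 TPM.

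Elavl1 was among the lower members, below the most abundant decay factor by an order of magnitude. Elavl1 (ENSMUSG00000040028.10; chromosome 8, 4285382 to 4325413, minus) was at 17.01, 12.06 and 11.96 TPM, with replicate 1 above both others. Zfp36 exceeded it 11.4-, 16.4- and 16.1-fold in replicates 1, 2 and 3. The neuronal paralogues Elavl2, Elavl3 and Elavl4 were at 0.10, 0.02 and 0.05 TPM on average, with 6 counts at most in any library.

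Pcbp2 was above Pcbp1 in every library. Pcbp1 (ENSMUSG00000051695.6; chromosome 6, 86524492 to 86526321, minus), a gene without introns, was at 40.2, 47.6 and 36.7 TPM. Pcbp2 (ENSMUSG00000056851.14; chromosome 15, 102470539 to 102500061, plus) was at 97.2, 97.0 and 111 TPM. Pcbp2 held 71.0 ± 4.08% of the pair's TPM, and the ratio of Pcbp2 to Pcbp1 ran from 2.04 in replicate 2 to 3.03 in replicate 3. The paralogues Pcbp4 and Pcbp3 were lower, at 13.26 and 10.22 TPM.

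**Figure D1:**
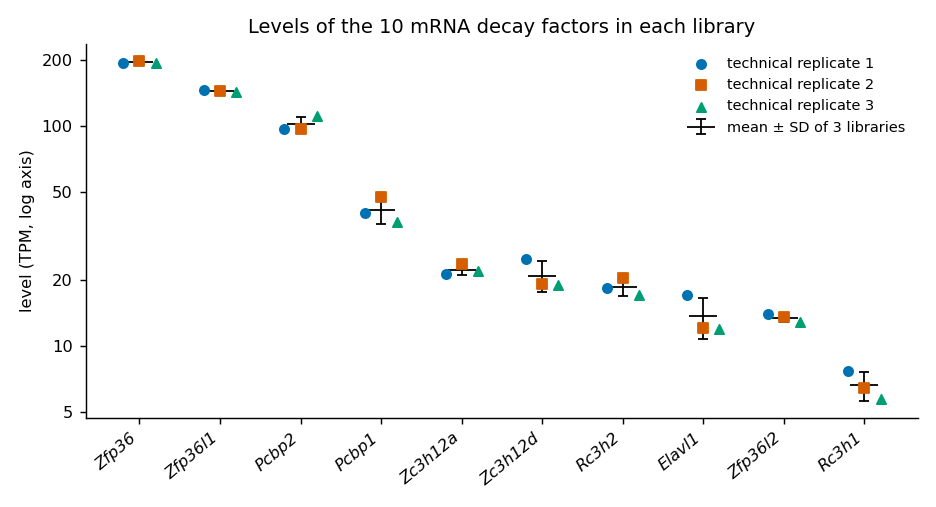
Level of each of the 10 genes in TPM on a log axis, with a point for each of the 3 libraries and a line and bar for their mean and SD. Zfp36 and Zfp36l1 lie at 142.7 TPM or more in every library, Pcbp2 and Pcbp1 follow, and Rc3h1 is lowest at 5.78 to 7.73 TPM.

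Ordered by mean TPM, the genes ran Zfp36, Zfp36l1, Pcbp2, Pcbp1, Zc3h12a, Zc3h12d, Rc3h2, Elavl1, Zfp36l2 and Rc3h1. Of the 9 neighbouring pairs in that order, 6 had ranges over the libraries that did not overlap. The remaining 3 pairs did overlap: Zc3h12a with Zc3h12d, Zc3h12d with Rc3h2, and Elavl1 with Zfp36l2. The separation of Rc3h2 from Elavl1 was narrow, with the lowest Rc3h2 library at 17.1 TPM and the highest Elavl1 library at 17.0 TPM. With protein-coding transcripts alone, an alternative chosen after seeing the data, Rc3h2 at 7.87 ± 0.63 TPM lay below Elavl1 at 13.3 ± 3.01 TPM. Per kilobase in the smaller count table Pcbp2 came first and Zfp36l2 last, below Rc3h1, and 5 of the 10 genes took another place.

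The estimates for Zfp36l1 and Pcbp2 share sequence with other genes. Of the 50-base windows of Zfp36l1-201, 56.9% also occur, on either strand, in another gene's transcripts, most of them in the antisense lincRNA Gm26669, which was given 75, 57 and 67 counts. For Pcbp2-216 the share was 34.6%, mostly with Map3k12 on the opposite strand, which had 436, 504 and 451 counts. The share was 3.19% for Zfp36, 1.61% for Zfp36l2 and under 1% for the remaining members. Elavl1 overlaps Ccl25 (285, 301 and 297 counts) on the opposite strand, and Pcbp1 overlaps the antisense gene 1600020E01Rik (318, 286 and 258 counts). Of the windows of Elavl1-204, 0 of 2268 were shared with another gene, and for Pcbp1 2 of 1781. Only the leading coding transcript of each gene was searched, so the 3489 bases found in Elavl1-201 but not in Elavl1-204 were not checked. The strand setting is not given in the sources used here, and without it reads from the shared sequence of Zfp36l1 or Pcbp2 and of the opposite-strand partner cannot be told apart.

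Between libraries, 6 of the 10 genes differed by more than counting noise (Pearson's chi-square test of homogeneity on estimated counts, Benjamini-Hochberg adjusted over 14641 genes, threshold 0.05). The same test called 44.9% of all genes tested and 55.4% of the 9957 genes with a mean count of 100 or more, a depth that all 10 members reached, so the members' share was near that background. Relative to library size, 3 members were highest in replicate 1, 7 in replicate 2 and none in replicate 3. The highest library exceeded the lowest by 1.04- to 1.34-fold, and the differences are described here gene by gene.

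Elavl1, Zc3h12d and Pcbp1 had the largest ratios between libraries in the larger gene table. Elavl1 had 646, 519 and 428 estimated counts, so that its CPM was 1.34-fold higher in replicate 1 than in its lowest library (chi-square test, adjusted p = 5.91e-06). Zc3h12d had 1327, 1071 and 900 counts, also highest in replicate 1, by 1.31-fold (chi-square test, adjusted p = 9.16e-11). Both calls rest on replicate 1: without that library the adjusted p of the chi-square test was 0.561 for Elavl1 and 0.581 for Zc3h12d. Pcbp1 had 945, 1175 and 770 counts, highest in replicate 2 by 1.33-fold (chi-square test, adjusted p = 4.84e-09), and its call was lost without replicate 2 (adjusted p = 0.173).

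Rc3h2, Zfp36 and Pcbp2 differed by less. Rc3h2 had 1194, 1378 and 990 counts, highest in replicate 2 by 1.21-fold (chi-square test, adjusted p = 4.97e-05). Zfp36 had 6212, 6653 and 5534 counts, a difference of 1.05-fold that passed at its greater depth (chi-square test, adjusted p = 0.0199). Without replicate 2 the adjusted p of the same chi-square test was 0.227 for Rc3h2 and 0.978 for Zfp36. In the larger table the erythroid markers were also highest in replicate 2, with the values given above. They were lowest in replicate 1, whereas Rc3h2 was lowest in replicate 3. In the smaller count table Hba-a1 and Hbb-bs were highest in replicate 3 (15.66 and 26.63 CPM) and Alas2 in replicate 2 (31.73 CPM). The part of erythroid RNA in these differences was not tested. Pcbp2 had 1490, 1682 and 1424 counts, with the highest CPM in replicate 2 by 1.11-fold (chi-square test, adjusted p = 0.0357), whereas its TPM was highest in replicate 3. Its call was lost without replicate 1 (chi-square test, adjusted p = 0.579) and without replicate 2 (adjusted p = 0.146).

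Zfp36l1, Zfp36l2, Rc3h1 and Zc3h12a did not pass the test. Zfp36l1 had 4520, 4790 and 4028 counts (chi-square test, adjusted p = 0.195) and Zfp36l2 had 644, 651 and 531 (adjusted p = 0.481). Rc3h1 had 651, 682 and 520 counts (chi-square test, adjusted p = 0.106). Zc3h12a had 742, 867 and 700 counts and lay next to the threshold (chi-square test, adjusted p = 0.0528), passing it with TMM or DESeq2 scaling of library size, with a minimum summed count of 300 and without replicate 3 (adjusted p = 0.0281, 0.0328, 0.043 and 0.0229). A p above the threshold does not show that these genes were equal in all libraries. Of the 10 members 5 passed in the smaller set of counts, of which 3 (Zc3h12d, Elavl1 and Pcbp1) are among the 6 named above, beside 23.2% of the 10885 genes tested there. Zfp36l2 and Rc3h1 passed, among the alternatives run, only there (chi-square test, adjusted p = 0.0078 and 0.024, with ratios of 1.56 and 1.31 between the highest library, replicate 1, and the lowest), and Zfp36, Rc3h2 and Pcbp2 did not pass there (adjusted p = 0.919, 0.431 and 0.124). The ratio of Zfp36l2 was the largest of the 10 in that set, ahead of 1.43 for both Zc3h12d and Elavl1, and that of Pcbp1 was 1.23. That set holds 29.3 to 31.1% of the total of the larger one.

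**Figure D2:**
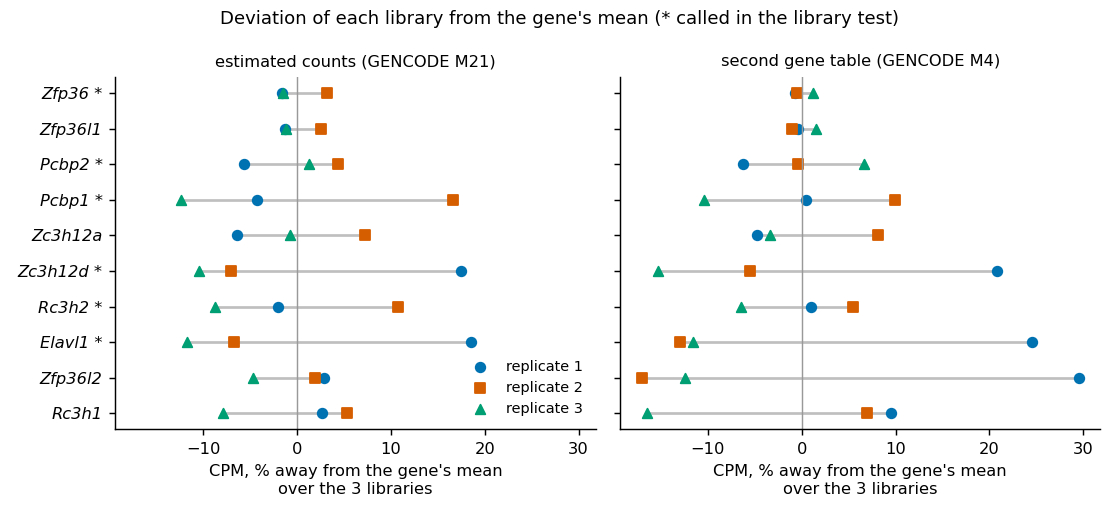
CPM of each library as a percentage away from the gene's mean over the 3 libraries, for the 10 genes in the larger gene table (left) and in the smaller count table (right), with a point for each library and an asterisk at genes that passed the chi-square test in the larger table. Elavl1 and Zc3h12d are highest in replicate 1 in both tables.

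Elavl1 was divided by the quantifier between a short and a long 3′UTR form with unequal motif content. Elavl1-204 and Elavl1-201 have the same stop codon, and the 3′UTR of the longer form runs on by 2961 bases, from 1257 to 4218 bases. The short form had 3 pentamers with no heptamer or nonamer, and the long form had 17 pentamers, 8 heptamers and 8 nonamers. Among genes near the long form's 3′UTR length, 17.1% had a nonamer. The short form was at 13.9, 8.98 and 8.81 TPM and the long form at 2.80, 2.65 and 2.61 TPM. The higher Elavl1 level of replicate 1 was thus assigned to the short form, while the values of the long form lay closer together. Elavl1-204 shares 2254 bases with Elavl1-201 and has 63 outside it, so these levels rest largely on the quantifier's division of reads. The posterior SD was 12.4 to 13.5 counts for either form. The nonamer-bearing form held 16.7, 22.8 and 22.9% of coding Elavl1 TPM, and 39.6% of coding counts on average because it is longer.

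Rc3h1 and Zfp36l1 were also divided by the quantifier between annotated forms with and without the nonamer. Rc3h1-202, which holds 20 pentamers and 1 nonamer, was at 3.41, 3.77 and 3.40 TPM. Rc3h1-201, with an annotated 3′UTR of only 20 bases and the same stop codon, was at 3.28, 2.23 and 1.92 TPM. By counts Rc3h1-202 took 81.4 ± 4.81% of the gene. Zfp36l1-201, with 9 pentamers and 1 nonamer, held 62.2, 67.0 and 62.0% of the gene's TPM and 78.8 ± 2.93% of its counts. Zfp36l1-202, whose 3′UTR is 1041 bases shorter and has 1 pentamer and no nonamer, held 23.4 ± 4.01% of the TPM. Neither Rc3h1-201 nor Zfp36l1-202 has a base outside its longer form, so these levels rest on the quantifier's division of reads. The posterior SD was 13.2 to 15.8 counts for Rc3h1-201, which was given 149, 106 and 78 counts. For Zfp36l1-202, given 849, 728 and 869 counts, it was 61.6 to 80.3 counts.

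Zfp36 was assigned almost wholly to a transcript without an intron. Zfp36-202 is a single exon of 2465 bases that runs through the 680 bases between the exons of Zfp36-201, and both forms carry the nonamer. Zfp36-202 held 95.4, 95.9 and 94.7% of the gene's TPM. Zfp36-201, with exons of 1080 and 1710 bases, held 4.56, 4.07 and 5.32%. The forms share 1785 bases, and reads there fit either, so the split rests on the remaining sequence. Zfp36l2, Zc3h12d and Pcbp1 have 1 annotated transcript each, and the coding transcript of Zc3h12a held 98.4 ± 1.42% of that gene.

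Pcbp2 was spread over many forms. Of its 31 annotated transcripts 15 were listed at 0 in every library. Pcbp2-216, Pcbp2-212 and Pcbp2-211 held 33.2 ± 4.89, 23.0 ± 3.99 and 16.1 ± 2.38% of the gene's TPM. Pcbp2-204 was listed at 0 in replicates 1 and 2 and at 13.4 TPM in replicate 3, the library in which the gene's TPM, though not its CPM, was highest.

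**Figure D3:**
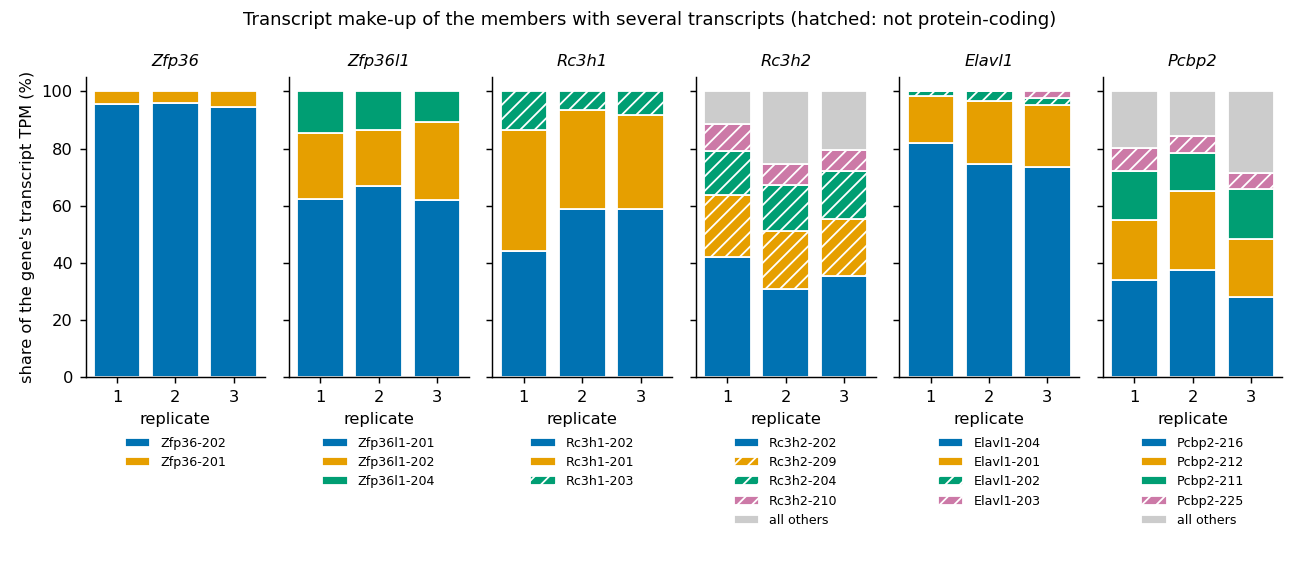
Share of the gene's TPM held by each transcript, in percent, stacked for each library of 6 genes with several transcripts; hatched parts are not protein-coding. Zfp36-202 takes 94.7 to 95.9% of Zfp36, whereas Elavl1 is divided between its short form (73.6 to 81.9%) and its long form (16.5 to 22.0%).

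The machinery that the factors recruit was present in these cells. All 15 CCR4-NOT genes and partners reached 1 TPM in every library, with a median of 58.8 ± 2.02 TPM beside 21.8 ± 1.32 TPM for the 10 members and 20.4 ± 0.69 TPM for all 12598 expressed genes. For the 10425 protein-coding genes among these the median was 26.05 ± 0.83 TPM, above that of the members. Btg2 and Btg1, antiproliferative partners of the complex, were at 188 and 113 TPM, and its scaffold Cnot1 was at 139 TPM. The CPM of Btg2 and Btg1 in the smaller count table was 0.344 and 0.327 of that in the larger one, beside 1.93 for Cnot1. Cnot2, a structural subunit, was at 106 TPM, and the lowest were Cnot11 at 6.05 and Tob1 at 3.86 TPM. Between libraries 7 of the 15 differed by the chi-square test, beside 48.9% of the expressed genes that were tested, the background for each list below. That share was higher, at 52.1%, among expressed protein-coding genes, and 55.4% among genes with a mean count of 100 or more. Pan2 and Pan3, the other deadenylase, were at 37.4 and 29.96 TPM, and both differed.

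Decapping and exosome genes had medians of a like size. All 17 genes of decapping and 5′ to 3′ decay reached 1 TPM, with a median of 58.8 ± 2.89 TPM and 7 of 17 differing between libraries. The highest were the LSM ring genes Lsm4 (256 TPM), Lsm7 (163 TPM), Lsm6 (145 TPM) and Lsm3 (110 TPM), and the lowest the decapping factors Dcp1b (16.4 TPM) and Patl1 (15.6 TPM). In the smaller count table the CPM of Lsm7 was 0.0649 of that in the larger one. The same ratio was 0.962 for Lsm4, 0.538 for Lsm6 and 0.977 for Lsm3. Of 15 exosome and Ski genes 14 reached 1 TPM, the list's median was 67.8 ± 1.75 TPM, and 6 of 14 tested differed. Exosc8, a core subunit, was at 182 TPM, the helicase Skiv2l at 131 TPM, and Exosc10 and Exosc5 at 105 and 98.2 TPM. The nuclease Dis3 was at 7.01 TPM and Exosc6 was listed at 0 in every library.

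Other proteins that bind AU-rich or stem-loop elements were all detected. The 14 genes had a median of 44.0 ± 5.30 TPM. Between libraries 11 of 14 (78.6%) differed, beside 48.9% of expressed genes and 55.4% of genes with a mean count of 100 or more. Zc3h7a was highest at 319 TPM, followed by Hnrnpa1 (121 TPM), by Arid5a (114 TPM), known to protect stem-loop mRNAs from Regnase-1, and by Tia1 (113 TPM), a translational repressor. In the smaller count table the CPM of Hnrnpa1 was 0.0472 of that in the larger one. N4bp1 and Zc3h7b were lowest, at 4.28 and 3.76 TPM. Among the paralogues outside the 10 members, 4 of 8 reached 1 TPM in every library (Pcbp4, Pcbp3, Zc3h12c and Zc3h12b).

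Genes whose products modify the factors were all above 1 TPM. The 12 genes had a median of 49.6 ± 4.79 TPM, and 9 of 12 (75%) differed between libraries, beside the same 48.9 and 55.4%. Ywhaz, a 14-3-3 protein of the kind that binds phosphorylated tristetraprolin, was at 847 TPM, but its CPM in the smaller count table was only 0.0122 of that in the larger one (113 to 116 counts there). Ikbkb, a kinase acting on Regnase-1, was at 209 TPM, Mapkapk3 at 113 TPM and Bcl10, the partner of MALT1, at 88.5 TPM. Mapkapk2, the kinase best known for phosphorylating tristetraprolin, was at 6.38 TPM, below Mapkapk3, and Ppp2ca, a phosphatase catalytic subunit, was at 5.47 TPM.

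Textbook target mRNAs ranged from abundant to undetected. Of 17 targets 12 reached 1 TPM in every library, with a median of 27.3 ± 5.23 TPM over the list. Between libraries 9 of 13 tested (69.2%) differed, beside 48.9% of expressed genes and 55.4% of genes with a mean count of 100 or more. The costimulatory receptors Tnfrsf4 and Icos were at 842 and 372 TPM, and Il2ra and Ctla4 at 352 and 319 TPM. In the smaller count table their CPM was, in that order, 0.539, 0.38, 0.353 and 0.53 of that in the larger one. That ratio was 1.31 for Tnf. At the low end Ptgs2 was at 0.02 TPM and Il17a had no count. Tnf was at 44.9, 46.4 and 44.7 TPM. The 3′UTR of Icos held 2 pentamers, that of Tnfrsf4 none, and neither held a heptamer or nonamer, while Tnf and Csf2 held 5 and 4 nonamers. Csf2 was at 0.467 TPM. Il2, Rel and Ptgs2 held 1 nonamer each, and the remaining targets held none, Il17a among them. With 1 condition, levels of factors and targets could not be related to each other.

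**Figure D4:**
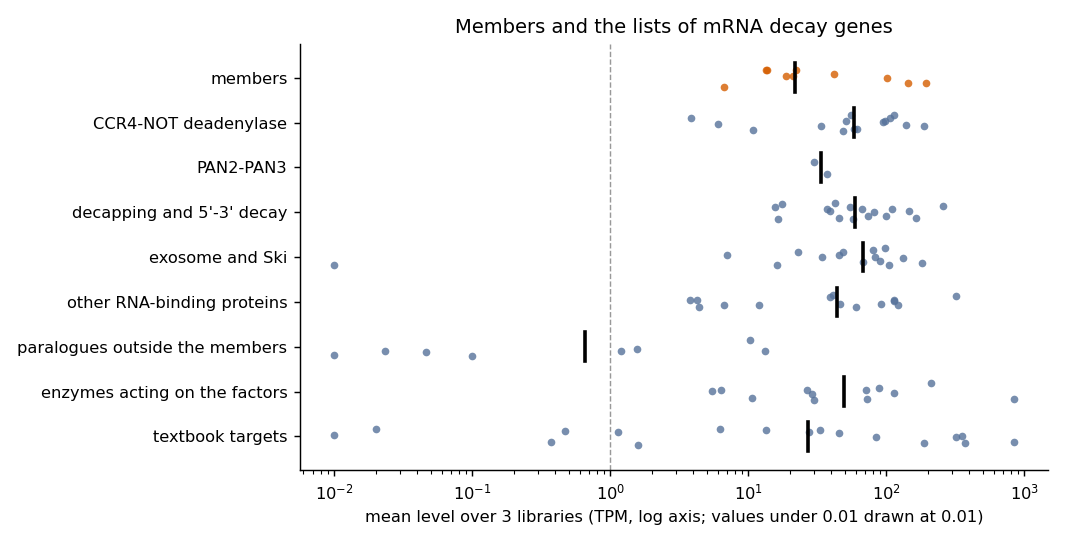
Mean TPM of each gene, on a log axis, for the 10 members and the lists of mRNA decay genes, with a point for each gene and a bar at the mean over libraries of each list's median. A value under 0.01 is drawn at 0.01, and the dashed line marks 1 TPM. The CCR4-NOT, decapping and exosome lists lie at medians of 58.8, 58.8 and 67.8 TPM, above the members at 21.8 TPM.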

How the data were processed

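Polyadenylated RNA was sequenced in 3 libraries of 1 biosample, which form 1 group. Per library, the authors deposited gene and transcript tables on mm10 with GENCODE M21, holding estimated counts (expected counts), TPM, FPKM and, per gene and transcript, a posterior mean and SD of the count, per the file headers and the text files that list the contents. A second deposited table holds whole-number counts on GENCODE M4. Which aligner, quantifier version, counter and strand option were used is not given in the sources used here. Members and lists were chosen with earlier results of these data known. The motif search and the naming of Tnf and Csf2 came after values were seen.

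Rows naming no gene (0.189 to 0.271% of counts) were left out. Estimated counts were rounded and compared with library totals by Pearson's chi-square test with 2 degrees of freedom, where a gene had at least 30 counts over the libraries, adjusted by Benjamini-Hochberg. A count of 0 allows up to 3 counts, or 0.141 to 0.162 CPM, for counting error only, since reads are not independent molecules. On data simulated for 14641 genes the test recovered 74% of 1.25-fold and 96% of 1.5-fold changes and called 0.0969% of unchanged genes. Changes were put only into replicate 2 of genes with an expected mean count of 100 or more. The simulated counts held counting noise alone, as the test assumes. The low rate for unchanged genes was therefore set in advance and does not measure error in the real libraries. Members were all named. Of the lists, every gene was named up to 8 genes, and beyond that the 4 most and 2 least abundant. Planned protein features were not made. Alternatives were TMM and DESeq2 scaling, count minimums, a deviance statistic, FPKM, the second table, coding transcripts and leaving out each library. Tests used scipy 1.17.1 in Python 3.11.15, with pandas 2.3.3, and scaling used edgeR 4.0.16 and DESeq2 1.42.0 in R 4.3.3.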

Additional observations from a re-analysis of the deposited data

How the results depend on the processing

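The number of members differing between libraries, 6, ranged from 2 to 7 when a library was left out: 3 without replicate 1, 2 without replicate 2 and 7 without replicate 3, beside 30.3, 27.7 and 34% of all genes tested. It was 7 with TMM or DESeq2 scaling (45 and 44.7% of all genes) and with a minimum count of 300 (56.9%), and 6 with the deviance statistic (45%). It was 5 with no minimum (20.1%) and in the second table (23.2%). With no minimum Pcbp2 missed the threshold (chi-square test, adjusted p = 0.0698). All 10 members reached 1 TPM in every library, so leaving out a library could not change that count. It was 10 at a threshold of 5 TPM and 9 at 10 TPM. No paired analysis was possible because all libraries form 1 group. Depth, at 428 to 6653 estimated counts per member and library, limits single-gene differences, and the division of reads among transcripts limits shares.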
